A study of Mus musculus with 24 samples.

Results

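Valine tRNA fragments are the 51 small RNA features of nuclear valine tRNA genes, out of 4408 features counted by small RNA sequencing in mouse CD4+ T cells and in extracellular vesicles (EVs) released by these cells. They were taken as every feature named for a valine tRNA gene, whatever its counts. Altogether 780 features belonged to nuclear tRNA genes, so 729 nuclear tRNA features of other amino acids served for comparison. A tRNA gene name gives the amino acid, the anticodon, an isodecoder number and a locus number, and loci that share the isodecoder number encode the same mature tRNA. The 51 features came from 16 loci, of which 6 carried the anticodon AAC, 7 CAC and 3 TAC, and these gave 11, 29 and 11 features.

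The cells were CD4+ T cells from the spleen and lymph nodes of wild-type C57BL/6 mice, and both cells and EVs were sequenced in 4 states. GW4869 cells were stimulated for 3 days with GW4869, an inhibitor of neutral sphingomyelinase, an enzyme used in one route of vesicle release, and DMSO cells were stimulated for 3 days with its vehicle. Stimulated cells were kept for 3 days on plates coated with anti-CD28 (5 µg/ml) and anti-CD3 (2 µg/ml). These antibodies engage the costimulatory receptor CD28 and the T cell receptor complex. For the DMSO and GW4869 cultures the labels give no antibody dose. Resting cells had also been activated before, for 2 days, then expanded for 1 day and kept for 2 days in medium with IL2, so they were not naive cells. Each of the 8 groups had 3 libraries, and the labels do not say whether these came from separate animals or cultures, so p-values measure only the spread between these libraries, which may be technical. In the question the labels set out, EVs were compared with the cells that released them, before and after activation and with and without GW4869.

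A tRNA brings an amino acid to the ribosome, where its anticodon pairs with the codon. Cells also cut tRNAs into fragments, either near the anticodon loop, which gives long fragments known as tiRNAs, or closer to an end, which gives shorter 5′ or 3′ fragments. Such fragments are abundant in vesicles and body fluids, and 5′ fragments of glycine, glutamate and valine tRNAs are among those most often described there. The kind of a fragment is given here by its deposited name: 5FR_1 (16 features, 1 for every locus), 5_half_up (11), 3FR_1 (8), 3FR_2 (5), 5FR_2 (5), 5FR_S (3), 5_Internal_half (2) and not_annotated (1). The sources used here do not define these names. The 2 features named 5_Internal_half and the 1 named not_annotated were the only ones of their kinds in the whole set.

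Mitochondria carry a separate valine tRNA, mt-Tv, which is counted as 1 whole gene and is no member of the 51. Its sequence is shown because the deposited counts for it run beside the nuclear fragments, and the capitals mark its anticodon, TAC, at positions 33 to 35 of 69 (GRCm38, GENCODE vM21, plus strand, chrM:1025-1093, 5′ to 3′).
mt-Tv: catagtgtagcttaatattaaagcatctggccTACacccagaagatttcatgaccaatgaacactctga

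Libraries held 1290918 to 3231626 counts, of which 3641 to 10180 were valine tRNA fragments. No count under 4 occurred in any library, so all 51 features passed the filter on low counts, and features absent from some library are not in this list. Of 8 miRNAs typical of lymphocytes 7 were listed, among them Mir142, Mir150 and Mir155, at a sum of 20900 to 270000 CPM (counts scaled to 1e+06 per library), highest in resting cells (241000 to 270000 CPM) and lowest in GW4869 EVs (20900 to 32900 CPM). The listed miRNAs of red cells (1 of 2), platelets and endothelium (1 of 1) and epithelium (2 of 6) reached at most 95.9, 163 and 145 CPM, and none of those of myeloid cells, liver, muscle or stroma was among the listed features. One library stood apart in the fragments described here: GW4869 cells replicate 3 had much more 5FR_1 of AAC and CAC loci than the other 2 libraries of its group, and the main results that rest on it are given with and without it.

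Valine tRNA fragments made up a larger share of nuclear tRNA counts in EVs than in cells, and this was clearest in resting and stimulated cultures. The share was 10.8% to 12.4% in resting EVs against 6.60% to 8.15% in resting cells, and 9.18% to 9.98% in stimulated EVs against 7.46% to 7.63% in stimulated cells. The 2 ranges did not overlap in either state. In DMSO cultures the share was 9.73% to 12.7% in EVs and 6.75% to 10.2% in cells, and in GW4869 cultures 9.61% to 11.0% in EVs and 8.0% to 10.9% in cells, so there they overlapped. In bulk libraries every level is a share of the small RNA counted, so a change in the number of fragments cannot be told apart from a change in the other RNAs of the library.

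The composition by kind differed much more than the total. In cells the 3FR_2 kind held most valine counts, with a mean of 76.7% in resting, 78.0% in stimulated, 75.5% in DMSO and 70.4% in GW4869 cells. In EVs the mean 3FR_2 share was 56.0% in resting, 23.5% in stimulated, 14.5% in DMSO and 14.2% in GW4869 cultures. The 5FR_1 kind took up the difference, at 34.1% of valine counts in resting EVs against 10.4% in resting cells, and at 62.2% in stimulated EVs against 8.50% in stimulated cells. With DMSO it held 67.6% in EVs against 8.69% in cells, and with GW4869 66.2% in EVs against 12.9% in cells. The GW4869 cell value was 23.3% in replicate 3 and 7.57% and 7.77% in the other 2 libraries. The count of 5FR_1 over that of 3FR_2 was 2.21 to 3.29 in stimulated EVs and 0.101 to 0.123 in stimulated cells for valine, and 4.07 to 4.6 in stimulated EVs and 0.394 to 0.397 in stimulated cells for all other nuclear tRNAs together. Cells and EVs therefore held opposite majorities of valine fragments in every state but resting, where 3FR_2 led in both.

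**Figure D1:**
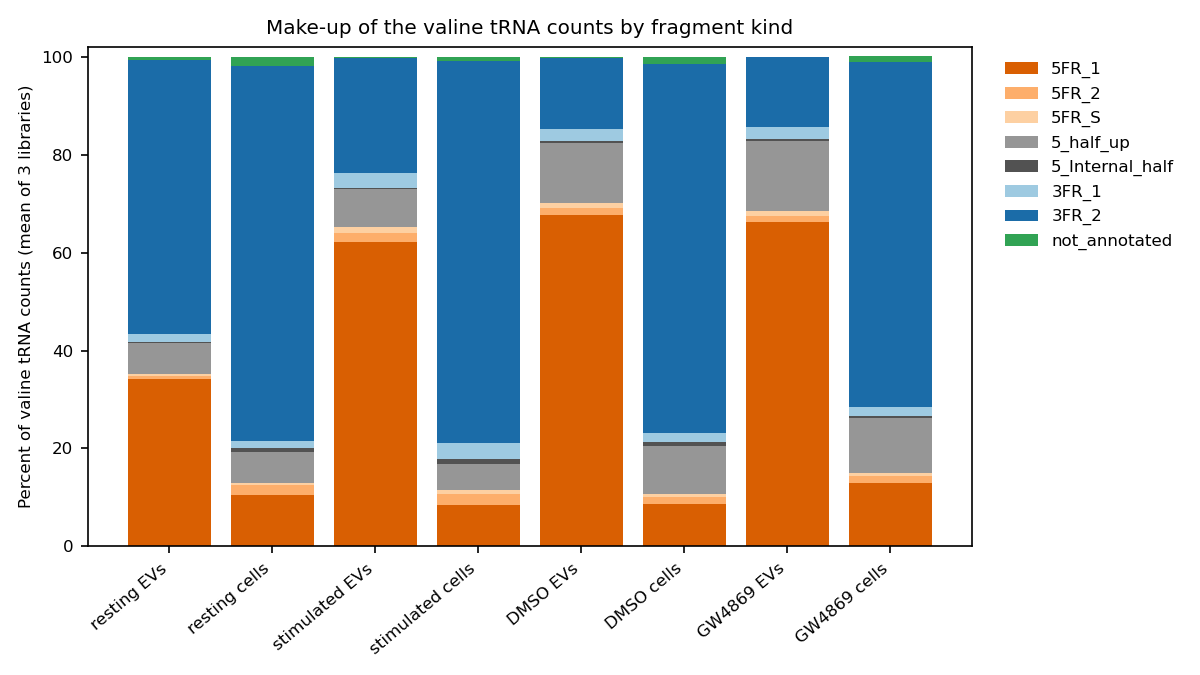
Mean share of valine tRNA counts (percent, vertical axis) taken by each fragment kind in the 8 groups of 3 libraries. 3FR_2 fills 70.4% to 78.0% of the bars of cells, whereas 5FR_1 fills 62.2% to 67.6% of the bars of stimulated, DMSO and GW4869 EVs.

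EVs were then compared with their cells feature by feature. A feature is called where its adjusted p was under 0.05 (quasi-likelihood test of edgeR, adjusted after Benjamini and Hochberg over all 4408 features). In resting cultures 21 of the 51 valine features were higher in EVs (18.9% of all features were) and 8 lower (15.4% of all). In stimulated cultures 30 were higher (27.7% of all) and 4 lower (25.8% of all). With DMSO 22 were higher (37% of all) and 5 lower (28.4% of all), and with GW4869 13 were higher (36.2% of all) and 10 lower (32% of all). Scaling by library totals moved the median difference of all features by 0.14, 0.44, 0.59 and 0.76 on the log2 scale in these states, and with it 40 were higher and 3 lower with DMSO, and 24 higher and 3 lower with GW4869. The shares of all features called with library totals were not counted, so these last numbers have no background beside them. The median log2 difference between EVs and cells over the valine features was 0.57 in resting, 1.01 in stimulated, 0.48 in DMSO and −0.10 in GW4869 cultures, beside −0.09, 0.53, 0.09 and −0.38 over the other nuclear tRNA features. Under the scaling that gave the shares of all features, more valine features than in the background were higher in resting and stimulated EVs. Under it fewer were higher with GW4869, and fewer were lower in stimulated, DMSO and GW4869 EVs. Every 5FR_1 locus was among those called higher in resting and stimulated EVs. These rows may share reads, so the counts are not counts of separate measurements.

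The 5FR_1 kind was the one that rose in EVs in all 4 states. For each kind the counts of its loci were summed, and the sums were tested in the same way beside all other features. The 5FR_1 sum was at 1214, 1837 and 2214 CPM in resting EVs against 421.8, 501.8 and 429 CPM in resting cells, and it was 1.96 ± 0.37 higher in EVs on the log2 scale (SE, n = 3 each; adjusted p = 0.000141, edgeR). In stimulated cultures it stood at 1238, 1656 and 1873 CPM in EVs against 135.3, 180.7 and 139.7 CPM in cells, a log2 difference of 3.39 ± 0.39 (adjusted p = 7.06e-08, edgeR), or 10.5-fold. With DMSO it stood at 1269, 2958 and 1612 CPM in EVs against 261.8, 262.1 and 212.8 CPM in cells, a log2 difference of 2.98 ± 0.39 (adjusted p = 3.46e-07, edgeR). In each of these states every EV library lay above every cell library. DMSO EVs replicate 2 was the highest of all 24 libraries, and without it the difference in DMSO cultures was 2.27.

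With GW4869 the 5FR_1 sum was at 1281, 1447 and 997.1 CPM in EVs against 218.7, 219.1 and 785.5 CPM in cells. EVs still lay above cells, by 1.60 ± 0.36 on the log2 scale (adjusted p = 0.0004, edgeR). Without GW4869 cells replicate 3, the library at 785.5 CPM, the difference was 2.34 (adjusted p = 1.37e-06, edgeR). The same library was also high in 5FR_1 of the other nuclear tRNAs, which made up 0.603% of its counts, against 0.430% and 0.381% in GW4869 cells replicates 1 and 2. By anticodon, the 5FR_1 sum of GW4869 cells was 89.76, 75.63 and 304.2 CPM for AAC loci and 107.2, 92.49 and 428.7 CPM for CAC loci. For TAC loci it was 22.3, 51.06 and 52.66 CPM, so replicate 3 did not stand apart there. What part the preparation of this library had in these values was not tested.

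**Figure D2:**
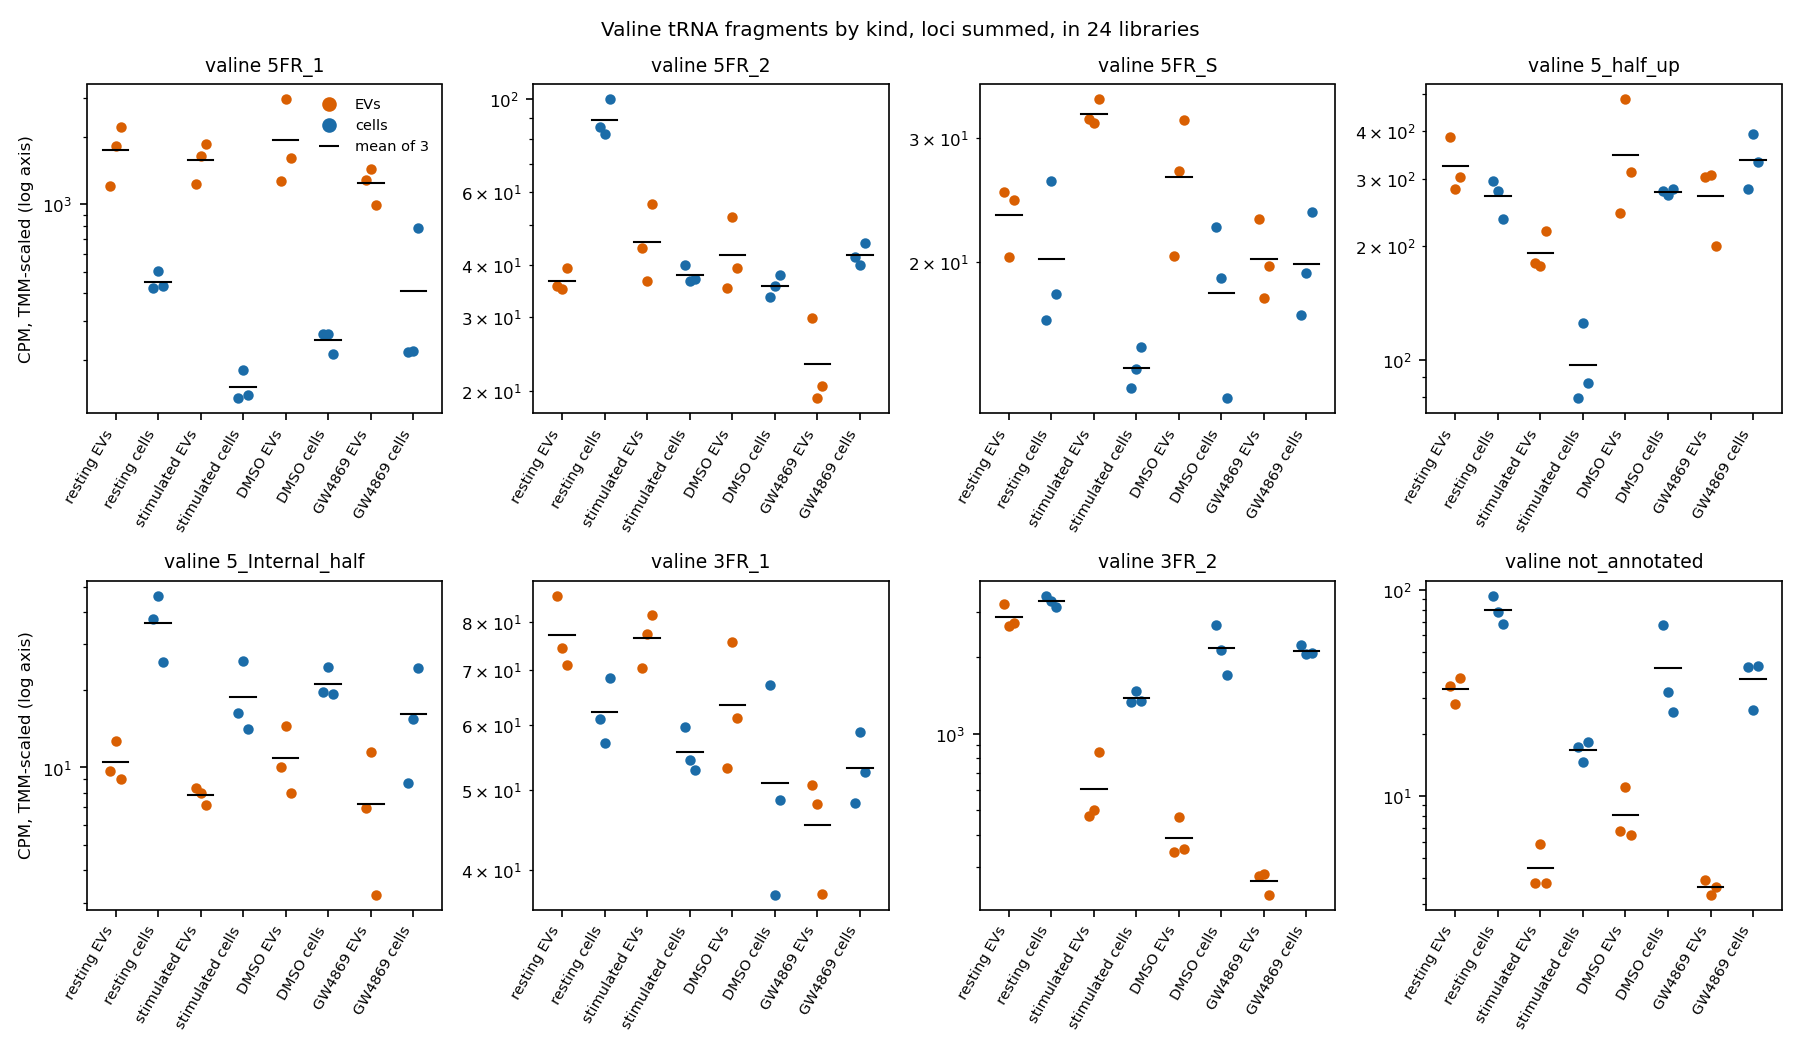
Level of each valine fragment kind (CPM, log axis) in every library of the 8 groups, with a bar at the mean of the 3 libraries. The 5FR_1 points of EVs lie above those of cells in all 4 states, and the 3FR_2 points of EVs lie below those of cells in stimulated, DMSO and GW4869 cultures.

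The rise of 5FR_1 was seen at loci of all 3 anticodons, although AAC and CAC loci may share reads. All 16 loci were called higher in EVs of resting, stimulated and DMSO cultures, and 12 of 16 with GW4869. Among 5FR_1 features of other nuclear tRNAs, 81 of 156 were higher in resting, 135 in stimulated, 132 in DMSO and 73 in GW4869 EVs, and 9, 0, 9 and 10 were lower. Valine 5FR_1 features had median log2 differences of 2.15, 3.61, 3.10 and 1.69 in these states, beside 0.82, 1.98, 1.61 and 0.58 over the other 5FR_1 features. The differences at single loci ran from 1.11 to 2.67 in resting, 2.34 to 3.91 in stimulated, 1.77 to 3.41 in DMSO and 0.22 to 2.03 in GW4869 cultures. Valine accordingly made up 10.9% of all tRNA 5FR_1 counts in resting EVs against 3.84% in resting cells, and 13.3% in stimulated EVs against 4.51% in stimulated cells. With DMSO it made up 16.6% in EVs against 5.91% in cells, and with GW4869 17% in EVs against 7.36% in cells, where GW4869 cells replicate 3 stood at 11.5% and the other 2 libraries at 4.93% and 5.64%. In resting cultures fewer loci stayed called when 1 library was left out, down to 13 of 16 without resting cells replicate 3 or resting EVs replicate 3. With GW4869 all 16 were called without GW4869 cells replicate 3.

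The highest single locus by mean 5FR_1 level was tRNA-Val-CAC-2-5. It had 95.74, 142.7 and 151.4 CPM in stimulated EVs against 11.04, 6.961 and 9.995 CPM in stimulated cells, and 88.5, 163.9 and 181.7 CPM in resting EVs against 19.84, 28.2 and 28.15 CPM in resting cells. All EV libraries were above all cell libraries in both states. With GW4869 its levels were 114.1, 138.6 and 99.17 CPM in EVs against 17.29, 9.765 and 71.89 CPM in cells, where the cell library at 71.89 CPM is again replicate 3.

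By anticodon, the 5FR_1 sum of AAC loci was higher in EVs by 1.95, 3.39, 2.81 and 1.39 on the log2 scale in resting, stimulated, DMSO and GW4869 cultures, and that of CAC loci by 2.35, 3.79, 3.21 and 1.70. The sum of TAC loci was higher by 1.18, 2.58, 2.69 and 1.86, all of them called (adjusted p at most 0.0145, edgeR). The smallest of these, TAC in resting cultures, lost its call in 5 of the 6 fits that left out 1 library. Among valine 5FR_1 counts, TAC loci made up 13.9% to 16.4% in resting EVs against 24.2% to 29.5% in resting cells, and CAC loci 51.4% to 53.9% in resting EVs against 39.7% to 41.2% in resting cells. The 2 ranges did not overlap for either anticodon. AAC loci held 30.4% to 34.7% in resting EVs and 30.8% to 35.3% in resting cells, which overlapped.

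The 16 loci fell into sets with nearly equal 5FR_1 counts, a grouping made after the values were seen. In 9 loci, AAC-1-1, AAC-1-2, AAC-5-1, CAC-1-1 and CAC-2-1 to CAC-2-5, the variance of the counts between loci over their mean was 0.93 at the median library (range 0.328 to 1.48), where counting error alone gives about 1. AAC-2-1, AAC-2-2, AAC-3-1 and CAC-3-1 formed a lower set (0.818 at the median) and TAC-1-1 to TAC-1-3 another (0.574), whereas over all 16 loci the ratio was 16.1. These sets cross anticodons and isodecoder numbers, and how the authors assigned reads that match several loci is not given in the sources used here. Single 5FR_1 loci are therefore uncertain and count as shared targets, not as separate measurements. The same holds for the 5FR_1 sums and shares of AAC and CAC loci, which draw on the same sets. Per locus, the set of AAC-2, AAC-3 and CAC-3 stood at 0.265 to 0.408 of the level of CAC-2 in resting EVs against 0.563 to 0.638 in resting cells, and at 0.183 to 0.256 in GW4869 EVs against 0.561 to 0.786 in GW4869 cells. The 4 loci of this lower set were the ones not called higher in GW4869 EVs. One of them, AAC-2-1, had 29.85, 23.34 and 22.85 CPM in GW4869 EVs against 11.35, 12.21 and 40.75 CPM in GW4869 cells, so that cell replicate 3 lay above all EV libraries.

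**Figure D3:**
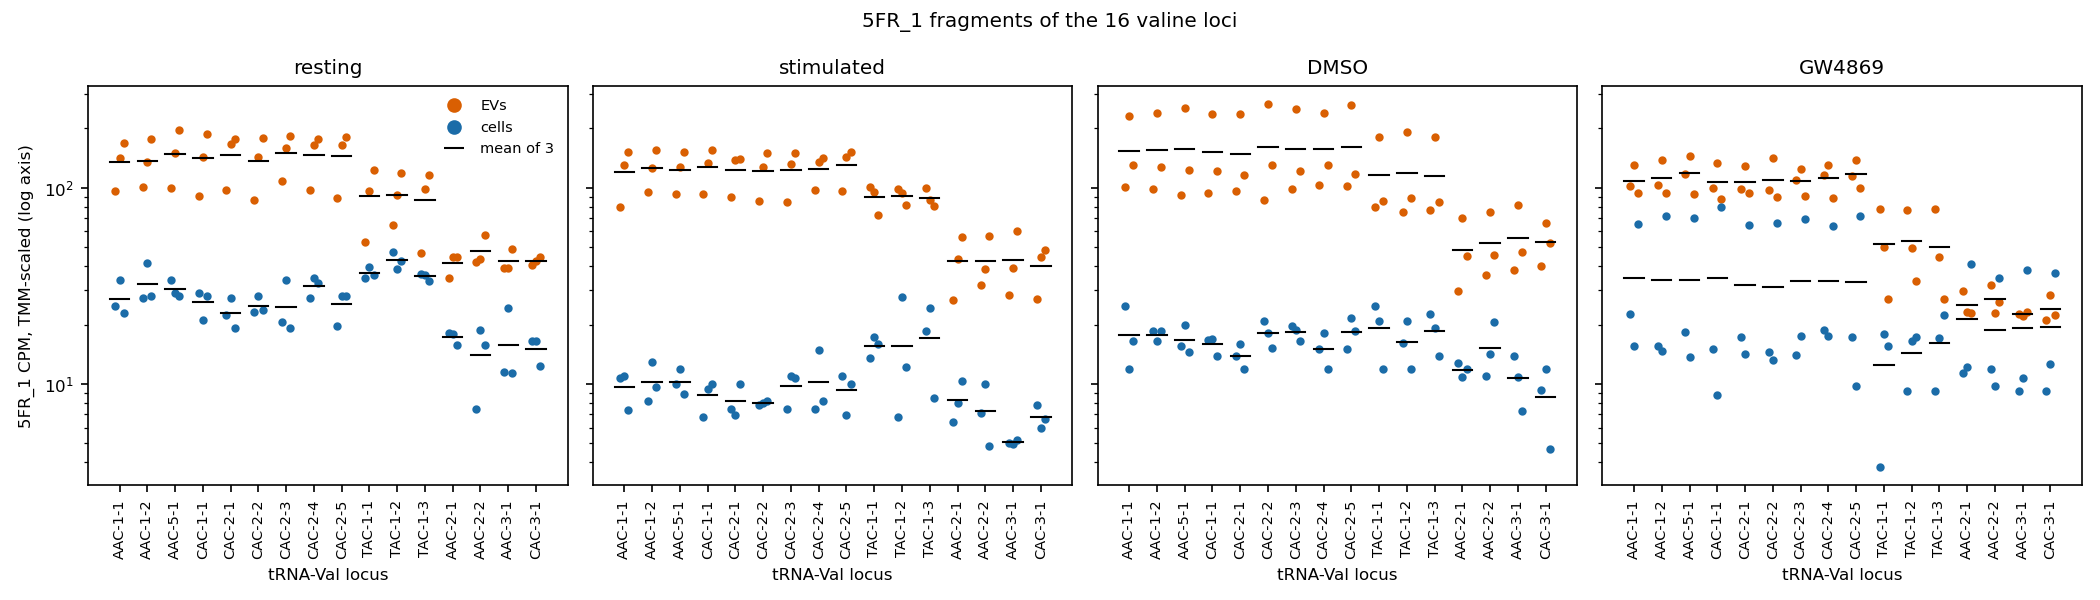
5FR_1 level (CPM, log axis) of the 16 valine loci in EVs and cells of each state, points for libraries. Loci of AAC-2, AAC-3 and CAC-3 lie below the others, and in resting, stimulated and DMSO cultures EVs lie above cells at the loci drawn.

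The 3FR_2 kind went the other way as a sum. It stood at 3224, 2643 and 2724 CPM in resting EVs against 3474, 3332 and 3148 CPM in resting cells, with overlapping libraries and a log2 difference of −0.21 ± 0.20 that was not called (adjusted p = 0.476, edgeR). In stimulated cultures it fell to 474.1, 503.8 and 849.1 CPM in EVs, against 1336, 1476 and 1348 CPM in cells, a log2 difference of −1.19 ± 0.20 (adjusted p = 2.33e-05, edgeR). With DMSO it stood at 342.4, 472.7 and 353.2 CPM in EVs against 2675, 2137 and 1694 CPM in cells, a log2 difference of −2.48 ± 0.21 (adjusted p = 3.7e-10, edgeR). With GW4869 it stood at 275.6, 280.3 and 233.4 CPM in EVs against 2229, 2050 and 2065 CPM in cells, a log2 difference of −3.01 ± 0.21 (adjusted p = 1.05e-11, edgeR). In these 3 states every EV library lay below every cell library. GW4869 cells replicate 3, which stood apart in 5FR_1, was level with the other 2 libraries here.

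Most counts of this sum were assigned to 1 locus, tRNA-Val-CAC-2-1, which held 95% of valine 3FR_2 counts in resting cells and 88.8% to 90.6% on average in the other cells, against 70.0% in resting EVs and 55.6% to 62.6% on average in the other EVs. Its 3FR_2 level was 2186, 1834 and 1888 CPM in resting EVs against 3128, 2956 and 2771 CPM in resting cells, and 273, 286 and 417.5 CPM in stimulated EVs against 1242, 1391 and 1259 CPM in stimulated cells. With GW4869 it was 170.3, 179.3 and 144.5 CPM in EVs against 2005, 1868 and 1993 CPM in cells. EV libraries lay below cell libraries in each case, and the log2 differences were −0.58 in resting (adjusted p = 0.0201, edgeR), −2.0 in stimulated (5.3e-09), −3.04 in DMSO (7.13e-12) and −3.57 in GW4869 cultures (3.92e-13). The difference in resting cultures was no longer called without resting cells replicate 1 (−0.54), resting EVs replicate 2 (−0.54) or resting EVs replicate 3 (−0.55).

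Of the other 3FR_2 loci, tRNA-Val-AAC-5-1 was higher in EVs in all 4 states. It had 594.2, 460.6 and 460.2 CPM in resting EVs against 42.15, 40.73 and 34.3 CPM in resting cells, and 95.24, 96.87 and 163 CPM in stimulated EVs against 21.72, 21.88 and 24.06 CPM in stimulated cells. With DMSO it had 62.27, 95.19 and 63.2 CPM in EVs against 15.05, 20.44 and 14.59 CPM in cells, and with GW4869 52.67, 47.43 and 49.38 CPM in EVs against 31.88, 31.74 and 21.98 CPM in cells. EVs lay above cells without overlap in all 4 states, by 3.69 ± 0.25, 2.39 ± 0.24, 2.13 ± 0.25 and 0.81 ± 0.24 on the log2 scale (adjusted p = 1.75e-11, 4.82e-09, 7.39e-08 and 0.00402, edgeR). The fragments of AAC-5-1 and CAC-2-1, of the same kind and the same amino acid, therefore stood at a ratio of 0.244 to 0.272 in resting EVs against 0.0124 to 0.0138 in resting cells, and at 0.339 to 0.390 in stimulated EVs against 0.0157 to 0.0191 in stimulated cells. With DMSO the ratio was 0.294 to 0.308 in EVs against 0.00602 to 0.0105 in cells, and with GW4869 0.265 to 0.342 in EVs against 0.0110 to 0.0170 in cells.

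Even loci that encode the same mature tRNA differed in 3FR_2. CAC-2-3 had 158.8, 120.2 and 134.5 CPM in resting EVs against 23.97, 7.833 and 8.796 CPM in resting cells, and CAC-2-5 had 29.24, 26.4 and 31.41 CPM in resting EVs against 4.133, 5.483 and 7.916 CPM in resting cells. Both lay above cells without overlap, where CAC-2-1 lay below. CAC-2-3 was higher in resting, stimulated and DMSO EVs by 3.34, 2.26 and 2.04 on the log2 scale, and CAC-2-5 by 2.31, 1.55 and 1.22, all called by edgeR (adjusted p at most 0.00426). With GW4869 the differences were 0.91 (adjusted p = 0.0526) and 0.12 (adjusted p = 0.789), not called. With library totals both were called, at 1.67 (adjusted p = 0.000697, edgeR) and 0.87 (adjusted p = 0.0381, edgeR). CAC-2-3 was also called when only the groups compared were fitted (0.86), without GW4869 cells replicate 3 (1.17) and without GW4869 EVs replicate 3 (1.18), whereas CAC-2-5 was not. Between the 3 loci of CAC-2 with this kind, the highest 3FR_2 count was 140 times the lowest at the median library (range 18.5 to 1080), whereas between the 5 CAC-2 loci in 5FR_1 it was 1.22 times the lowest. The fragment sequences behind these rows were not analysed here, so whether the rows differ at the fragment's end was not tested. How reads that match several of these loci were assigned is not given either. The 3FR_2 counts of single CAC-2 loci, CAC-2-1 included, therefore need not show which gene the fragments came from.

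The fifth 3FR_2 locus, tRNA-Val-CAC-3-1, changed side between states. It had 173.8, 177.8 and 162.8 CPM in resting EVs against 96.71, 101.1 and 95.87 CPM in resting cells, and 53, 66.42 and 167.7 CPM in stimulated EVs against 123.2, 136.7 and 120.7 CPM in stimulated cells. With DMSO it had 36.45, 46.05 and 31.74 CPM in EVs against 240.3, 194.2 and 171.8 CPM in cells, and with GW4869 35.55, 31.87 and 28.98 CPM in EVs against 172.4, 168.9 and 141.9 CPM in cells. EVs lay above cells at rest and below them with DMSO and GW4869, and stimulated EVs overlapped their cells through 1 library, replicate 3. The log2 differences were 0.81 in resting (adjusted p = 0.0248, edgeR), −0.41 in stimulated (0.205), −2.41 in DMSO (8.78e-08) and −2.32 in GW4869 cultures (1.39e-07). The resting difference was called in only 1 of the 6 fits that left out 1 library, and without stimulated EVs replicate 3 the stimulated one was −1.09 (adjusted p = 0.000115, edgeR). By number of loci, 4 of the 5 valine 3FR_2 features were higher and 1 lower in resting EVs, 3 and 1 in stimulated, 3 and 2 in DMSO, and 1 and 2 in GW4869 EVs. Of 53 other 3FR_2 features 43 were higher and 7 lower in resting EVs, 28 and 9 in stimulated, 30 and 10 in DMSO, and 3 and 13 in GW4869 EVs.

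**Figure D4:**
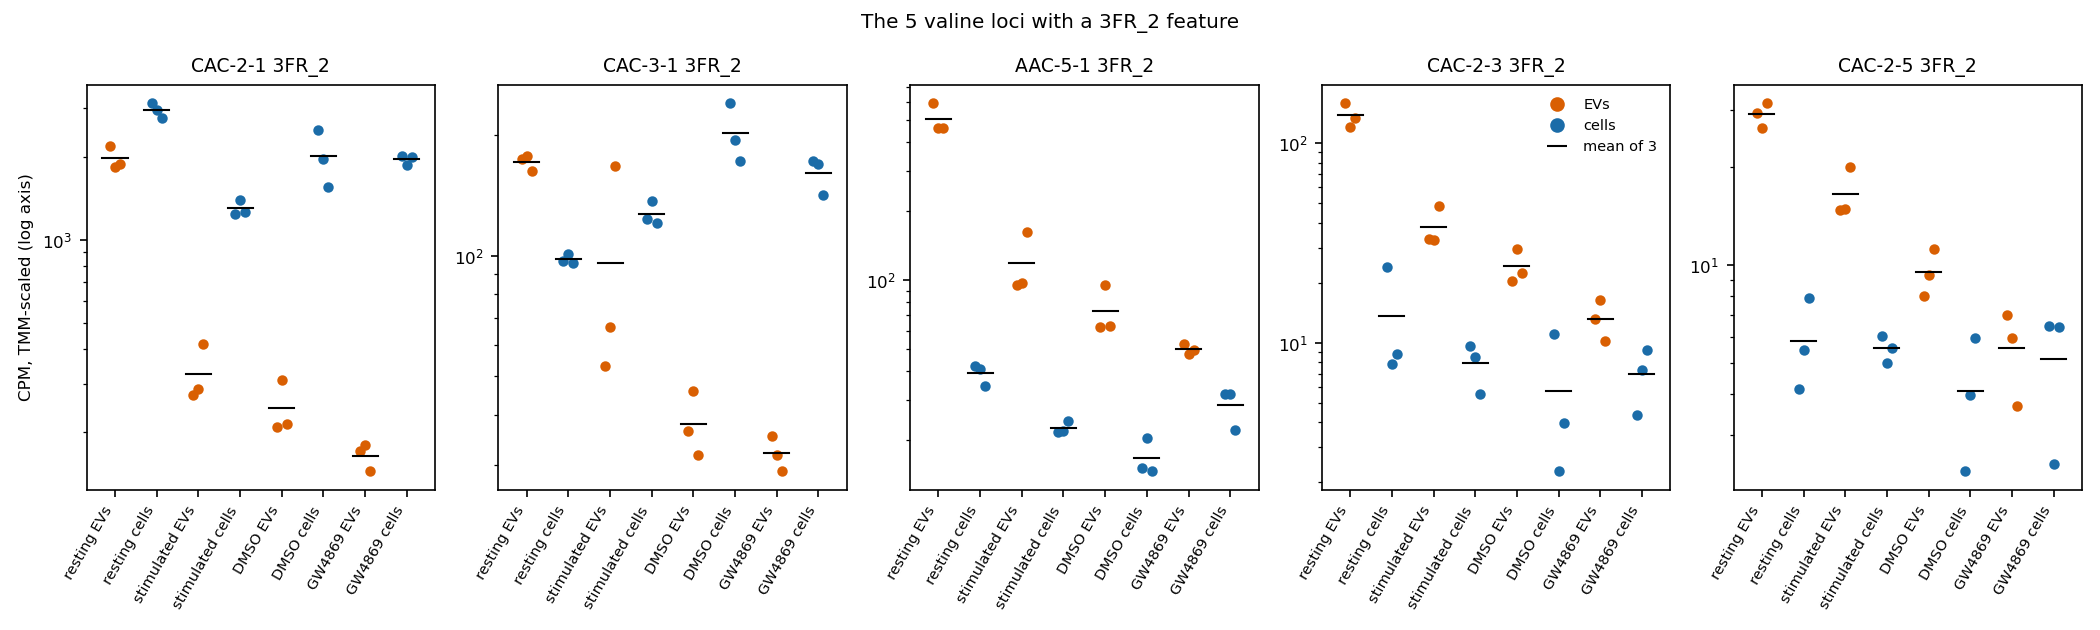
3FR_2 level (CPM, log axis) of the 5 valine loci with this kind, points for libraries of EVs and cells in each state. CAC-2-1 lies lower in EVs than in cells, AAC-5-1 lies higher in EVs in all 4 states, and CAC-3-1 lies higher in resting EVs and lower in DMSO and GW4869 EVs.

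The remaining kinds were rarer. The 5FR_2 sum, all from CAC-2 loci, fell in resting EVs (35.68, 35.05 and 39.42 CPM against 85.41, 82.24 and 99.66 CPM in resting cells, without overlap) and in GW4869 EVs (29.95, 19.23 and 20.52 CPM against 41.78, 39.98 and 45.26 CPM in GW4869 cells, without overlap), by 1.27 ± 0.22 and 0.87 ± 0.22 on the log2 scale (adjusted p = 4.49e-05 and 0.00107, edgeR). The GW4869 call was lost with library totals (−0.12). The sum was 0.26 ± 0.21 and 0.24 ± 0.21 higher in stimulated and DMSO EVs, which was not called. Other 5FR_2 features were lower in EVs for 82, 42, 58 and 62 of 104 in resting, stimulated, DMSO and GW4869 cultures, and valine ones for 4, 0, 0 and 4 of 5. The 5_half_up sum stood at 179.7, 176.8 and 218.2 CPM in stimulated EVs against 79.36, 125.3 and 87.15 CPM in stimulated cells, without overlap, and was 0.98 ± 0.23 higher on the log2 scale (adjusted p = 0.00114, edgeR). It was not called in the other 3 states, although scaling by library totals gave a call with DMSO (0.81). In stimulated EVs 8 of the 11 valine 5_half_up features were higher and none lower, where 25 of 91 such features of other tRNAs were higher and 46 lower. Without stimulated cells replicate 1 the number higher was 3 of 11.

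The 5FR_S sum was called in stimulated EVs too, at 1.19 ± 0.24 higher on the log2 scale (31.84, 31.47 and 33.98 CPM in EVs against 13.23, 14.08 and 15.17 CPM in cells, adjusted p = 0.000196, edgeR). The not_annotated fragment, from the same locus CAC-2-1 that led the 3FR_2 kind, fell in EVs of all 4 states, by 1.27, 1.89, 2.38 and 3.34 on the log2 scale, and stood at 0.870 to 3.72 per 100 counts of CAC-2-1 3FR_2 over all 24 libraries. The 5_Internal_half sum, from CAC-2-2 and CAC-2-5, also fell in EVs of all 4 states, by 1.80, 1.24, 0.98 and 1.16. With GW4869 it overlapped, at 6.944, 11.46 and 3.219 CPM in EVs against 8.681, 15.41 and 24.37 CPM in cells. Its call was lost without stimulated cells replicate 2 in that state, DMSO EVs replicate 3 with DMSO and GW4869 cells replicate 3 with GW4869, and with library totals for DMSO (−0.47) and GW4869 (−0.43). At 3.22 to 46.2 CPM these rest on few counts. The 3FR_1 sum over all anticodons was not called in any state, with 70.84 to 85.96 CPM in resting EVs and 57.06 to 68.34 CPM in resting cells, but with library totals it was higher in stimulated (0.79), DMSO (0.82) and GW4869 EVs (0.51). By anticodon, the 3FR_1 sums of AAC and CAC loci were called higher in stimulated EVs, and that of CAC loci in DMSO EVs. When 1 library was left out these differences ran from 0.591 to 0.837, 0.507 to 0.741 and 0.459 to 1.051.

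**Figure D5:**
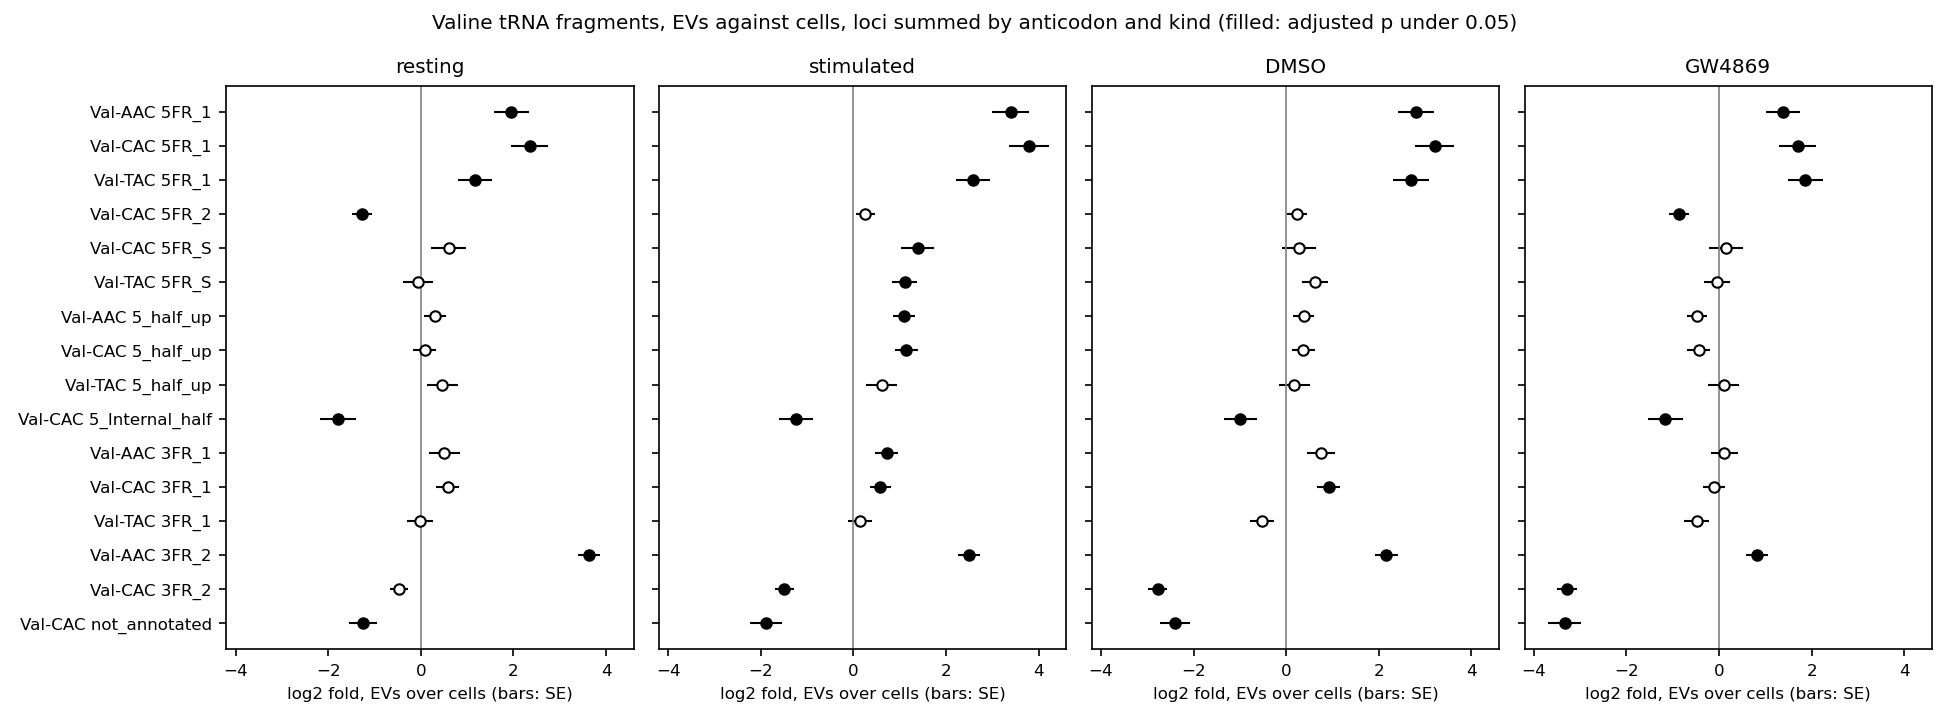
Log2 difference between EVs and cells (horizontal axis, bars for the SE) of the 16 sums of valine loci by anticodon and kind in the 4 states, filled where the adjusted p was under 0.05. All 3 sums of 5FR_1 lie to the right in every state, and the CAC sum of 3FR_2 lies to the left where the AAC sum lies to the right.

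Mitochondrial mt-Tv showed what a valine tRNA of another compartment did in the same libraries. It had 214.9, 182.7 and 178.5 CPM in resting EVs against 85.14, 87.73 and 102.9 CPM in resting cells, and 18.5, 23.78 and 26.86 CPM in stimulated EVs against 175.5, 188.4 and 201.7 CPM in stimulated cells. It lay above cells at rest and below them after stimulation, without overlap, by 1.06 and −3.04 on the log2 scale (adjusted p = 9.6e-05 and 6.72e-12, edgeR). In DMSO and GW4869 cultures it was lower in EVs by 3.29 and 3.84. The change of its EV-to-cell ratio with stimulation was −4.10 (adjusted p = 6.32e-11, edgeR).

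Valine fragments were lower in stimulated than in resting cells across most kinds. In EVs the features that were lower were 5 of 3FR_2, 4 of 5_half_up and 1 that was not_annotated. When libraries were scaled by their totals, the sums still called lower were 5_half_up and not_annotated in cells and 3FR_2 and not_annotated in EVs. In stimulated against resting cells 33 of the 51 features fell and none rose, where 23.1% of all features fell and 23% rose. In stimulated against resting EVs 1 rose and 10 fell, where 28.9% of all features rose and 25.2% fell. Median log2 differences over the valine features were −1.13 in cells and −0.23 in EVs, beside −1.05 and −0.32 over the other nuclear tRNA features.

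The 1 feature that rose in EVs was 5FR_S of TAC-1-2, with 9.749, 11.6 and 18.88 CPM in stimulated EVs against 8.692, 2.779 and 5.759 CPM in resting EVs, a log2 difference of 1.22 (adjusted p = 0.00626, edgeR). It rests on few counts, 11, 4 and 11 in resting EVs. The 5FR_S sum of all loci differed by 0.47 and was not called (adjusted p = 0.0962, edgeR). That of TAC loci was higher by 0.588 to 1.217 when 1 library was left out. In cells the 5FR_1 sum fell by 1.57 ± 0.37 on the log2 scale (adjusted p = 0.00105, edgeR), with 15 of 16 loci called lower, and 3FR_2 by 1.26 ± 0.20 (adjusted p = 1.11e-05, edgeR). The number of 5FR_1 loci called lower in cells was 7 without resting cells replicate 2, 10 without stimulated cells replicate 1 and 0 with library totals. The 5FR_2 and 5_half_up sums of cells fell by 1.23 and 1.48, with 4 of 5 and 10 of 11 loci called. In EVs the 5FR_1 sum differed by −0.14 ± 0.36 between stimulated and resting cultures (adjusted p = 0.746, edgeR), with overlapping libraries and no locus called. The 3FR_2 sum of EVs fell by 2.23 ± 0.21 (adjusted p = 2.08e-09, edgeR) with all 5 loci called lower, as were all 53 other 3FR_2 features. The 5_half_up sum of EVs fell by 0.76 ± 0.23 (adjusted p = 0.00776, edgeR) with 4 of 11 loci called lower. With library totals this reversed, to a sum 0.35 higher (adjusted p = 0.11, edgeR, not called) with 5 of 11 loci called higher and none lower.

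These 2 comparisons depend on the scaling more than the others do. Scaling by library totals moved the median of all features by 0.82 in cells and 1.12 in EVs on the log2 scale, and with it 8 valine features rose and 4 fell in cells, and 36 rose and 4 fell in EVs. How many of all features rose or fell under that scaling was not counted, so these numbers have no background beside them. Under that scaling the 5FR_1 sum differed by −0.60 in cells (adjusted p = 0.129, edgeR) and was higher by 0.96 in stimulated EVs (adjusted p = 0.0107, edgeR). The 3FR_2 sum of EVs was lower under both scalings, by 1.15 with library totals (adjusted p = 1.17e-06, edgeR), whereas in cells it was then −0.28 (adjusted p = 0.137, edgeR). At CAC-2-5 the 3FR_2 difference in EVs became 0.29 with library totals (adjusted p = 0.347, edgeR).

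The EV-to-cell ratio itself was compared between stimulated and resting cultures. Of the 51 features 9 had a higher ratio after stimulation (15.2% of all features had) and 3 a lower one (20.7% of all). With library totals 22 were higher and 3 lower, and with the size factors of DESeq2 in edgeR 5 and 3. The shares of all features under these other scalings were not counted. The 3FR_2 sum had a lower ratio after stimulation, by 0.98 ± 0.28 on the log2 scale (adjusted p = 0.00982, edgeR), and the 5FR_2 sum a higher one, by 1.54 ± 0.30 (adjusted p = 0.00035, edgeR). Both held in all 12 fits that left out 1 library. At single loci the 3FR_2 ratio was lower by 1.41 for CAC-2-1 (adjusted p = 0.000277), 1.3 for AAC-5-1 (0.00332) and 1.22 for CAC-3-1 (0.0163), so CAC-2-1, below its cells, and AAC-5-1, above its cells, moved the same way. The 5FR_1 sum had a higher ratio, by 1.43 ± 0.51 (adjusted p = 0.0335, edgeR), but this was called in only 3 of 12 fits that left out 1 library, and adjusted p was 0.0674 with size factors of DESeq2 in edgeR and 0.0651 in DESeq2.

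GW4869 was compared with DMSO, its vehicle. In cells none of the 51 valine features was called by edgeR, where 2.88% of all features were higher and 0.113% lower, and 13 had an unadjusted p under 0.05. With library totals 2 were called. The 5FR_1 sum stood at 218.7, 219.1 and 785.5 CPM in GW4869 cells against 261.8, 262.1 and 212.8 CPM in DMSO cells, a log2 difference of 0.73 ± 0.36 that was not called (adjusted p = 0.395, edgeR). Without GW4869 cells replicate 3 it was −0.26, so the sign of this difference rests on that library.

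In EVs 8 of the 51 features fell with GW4869 and none rose, where 9.69% of all features fell and 7.89% rose. Of these 5 were 5FR_1 (AAC-3-1, CAC-3-1 and all 3 TAC loci, by 1.12 to 1.27 on the log2 scale), 2 were 5FR_2 (CAC-2-2 and CAC-2-3) and 1 was 3FR_2 (CAC-2-1, by 0.57). The 5FR_2 sum fell by 0.86 ± 0.22 on the log2 scale (29.95, 19.23 and 20.52 CPM in GW4869 EVs against 35.3, 52.14 and 39.44 CPM in DMSO EVs, without overlap; adjusted p = 0.0103, edgeR), and by 0.67, no longer called, without DMSO EVs replicate 2. The 5FR_1 sum of TAC loci fell by 1.16 (adjusted p = 0.0278, edgeR). It was not called with library totals, with only the groups compared, or without DMSO EVs replicate 2, GW4869 EVs replicate 2 or GW4869 EVs replicate 3, and lay between −1.71 and −0.68 when 1 library was left out. Over all anticodons the 5FR_1 sum differed by −0.65 ± 0.36 (adjusted p = 0.203, edgeR), with 1281, 1447 and 997.1 CPM in GW4869 EVs against 1269, 2958 and 1612 CPM in DMSO EVs, which overlapped.

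The 3FR_2 sum was lower in all 3 GW4869 EV libraries than in any DMSO one, but its log2 difference of −0.57 ± 0.20 was not called (adjusted p = 0.0526, edgeR). DESeq2 called it (adjusted p = 0.0213). The number of features called in EVs moved strongly when 1 library was left out, to 1 without DMSO EVs replicate 2, GW4869 EVs replicate 2 or GW4869 EVs replicate 3, to 5 without GW4869 EVs replicate 1, and to 14 without DMSO EVs replicate 1. None was called when only the groups compared were fitted.

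The EV-to-cell ratio was lower with GW4869 than with DMSO for 5 of the 51 features and higher for none, where 5.83% of all features had a lower and 1.75% a higher ratio. These were 5FR_1 of CAC-3-1 (−2.30), AAC-3-1 (−2.13) and AAC-2-1 (−1.79), 5FR_2 of CAC-2-2 (−1.56) and 3FR_2 of AAC-5-1 (−1.32 ± 0.34, adjusted p = 0.0194, edgeR). Without GW4869 cells replicate 3 none of the 16 5FR_1 loci was called, nor when only the groups compared were fitted. The ratio of the 5FR_1 sum differed by −1.38 (adjusted p = 0.095, edgeR), and by −0.41 without GW4869 cells replicate 3. The 5FR_2 ratio was lower by 1.11 (adjusted p = 0.0268, edgeR), but lost its call in 7 of 12 fits that left out 1 library. Without DMSO EVs replicate 1 the number of features called was 12, and without GW4869 cells replicate 2 it was 9. Without DMSO cells replicate 2 or GW4869 EVs replicate 1 it was 3, without DMSO EVs replicate 2 or GW4869 cells replicate 3 it was 2, and without DMSO cells replicate 3, GW4869 EVs replicate 2 or GW4869 EVs replicate 3 it was 1.

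DMSO cultures were also set beside stimulated cultures without vehicle, as a check of how alike these 2 stimulated states were. In cells 13 of the 51 features were higher with DMSO (11.9% of all features were) and 1 lower (17.2% of all), and all 11 of the 5_half_up kind were among the higher ones, as were 85 of the 91 features of this kind from other tRNAs. The other higher ones were 3FR_2 (0.63 on the log2 scale) and not_annotated (1.28) of CAC-2-1, and the lower one was 3FR_1 of CAC-2-4 (−0.99). The 5_half_up sum stood at 278.6, 271.6 and 282.7 CPM in DMSO cells against 79.36, 125.3 and 87.15 CPM in stimulated cells, without overlap, a log2 difference of 1.52 ± 0.24 (adjusted p = 3.38e-05, edgeR). In EVs 7 features, all of them 5_half_up, were higher and 3 lower, where 13.6% of all features were higher and 9.91% lower, and 55 of the 91 other 5_half_up features were higher. The 3 lower ones were 3FR_2 of AAC-5-1 (−0.69), CAC-2-5 (−0.79) and CAC-3-1 (−1.33). CAC-2-5 was not called with library totals (adjusted p = 0.0577, edgeR) or in DESeq2 (adjusted p = 0.0502). When 1 library was left out, CAC-3-1 ran from −1.622 to −0.654, and the 3FR_2 sum of all loci lost its call in 3 of 6 fits. The 5_half_up sum of EVs was higher with DMSO by 0.86 ± 0.23 (adjusted p = 0.00858, edgeR) and by 0.51, not called, without DMSO EVs replicate 2. The number called in EVs was 4 without that library, and 5, 3 and 6 without stimulated EVs replicate 1, 2 and 3. Vehicle and any difference in culture, dose or batch between these sets of libraries cannot be told apart.

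The comparisons of EVs with cells, of states and of ratios share libraries, so their values are not independent of each other.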

How the data were processed

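Small RNA libraries of cells and EVs (24 in all, 3 for each of 8 groups) were used as deposited: raw read counts per feature, which the authors made with Bowtie on mm10/GRCm38, per the submitters' processing notes. Each table had 4441 lines, and 33 repeats were dropped. Members are all features named tRNA-Val-; they and the marker lists were chosen with earlier results of these data known. Counts were scaled by TMM and fitted in edgeR 4.0.16 (R 4.3.3) by quasi-likelihood as 8 groups in 1 model, with a count minimum of 10 (filterByExpr, which removed no feature) and Benjamini-Hochberg adjustment over all features at 0.05. Sums of loci by anticodon and kind (3798 features), and by amino acid and kind (3722 features, added after seeing the data), were fitted and scaled separately, so their CPM differ slightly from those of single loci. Levels are CPM, not divided by length. The fit was tested on simulated data. Loci were named by a rule: the highest mean of each kind, the extreme called fold of each comparison, and loci that differed by over 2 in log2 fold from others of their anticodon and kind; further loci that make up a count, AAC-2-1 and the remaining 3FR_2 loci were named after their values were seen. Alternatives were other size factors, library totals, a stricter filter (50 counts in 3 libraries), DESeq2 1.42.0, fits of only the groups compared, a replicate block and leaving out each library.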

Additional observations from a re-analysis of the deposited data

Results flagged for a closer look

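The EV-to-cell ratio of several valine sums differed between states, by the test of the difference itself (edgeR, 3 libraries per group, values on the log2 scale). Between stimulated and resting cultures the ratio was lower for 3FR_2 of AAC loci (−1.15, adjusted p = 0.00893) and of CAC loci (−1.03, adjusted p = 0.0066). It was higher for 5FR_1 of AAC (1.44, adjusted p = 0.0359), CAC (1.44, adjusted p = 0.0496) and TAC loci (1.41, adjusted p = 0.0359), for 5FR_2 of CAC loci (1.51, adjusted p = 0.000386), for 5_half_up of CAC loci (1.06, adjusted p = 0.0235) and for 5FR_S of TAC loci (1.17, adjusted p = 0.0362). Between GW4869 and DMSO cultures it was lower for 3FR_2 of AAC loci (−1.33, adjusted p = 0.0176) and for 5FR_2 of CAC loci (−1.09, adjusted p = 0.0275). The AAC sum of 3FR_2 is the single locus AAC-5-1. The AAC and CAC sums of 5FR_1 may share reads, so they do not count as separate results. With 1 library left out, 3 to 8 valine sums were called for stimulation and 0 to 6 for GW4869. Over all anticodons, the stimulation ratios of 3FR_2 and 5FR_2 kept their calls in all 12 such fits, those of 5FR_1 and 5FR_S in 3. That of 5_half_up was not called (0.72, adjusted p = 0.0954, edgeR). The GW4869 ratio of 5FR_2 kept its call in 5 of 12. Groups of 3 libraries were too small for a test of single outlying libraries.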

How the results depend on the processing

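Of 336 counts of calls, 262 stayed within 1.5 times the main count and 74 did not, 47 of them in fits that left out 1 library. Shares of all features were counted only beside the main counts, so the other counts have no background beside them. Called values were followed for the sums by anticodon and kind, and for loci named for the highest mean or an extreme fold. Of these 1661 values, 1436 kept direction and call, 222 lost the call and 3 reversed. Of 510 such values of sums over anticodons, 446 kept both, 63 lost the call and 1 reversed. The 4 reversals came with library totals, in stimulated against resting cultures: 3FR_2 of AAC loci, as a sum and as AAC-5-1, became 0.032 in cells, and 5_half_up of EVs became 0.50 for AAC loci and 0.35 over all loci. Other loci are not in these totals. Among them, 3FR_2 of CAC-2-5 in stimulated against resting EVs also reversed with library totals, to 0.29.
Scaling by library totals changed the number of features called to 43 for DMSO EVs against cells, 12 and 40 for stimulated against resting cells and EVs, 2 and 1 for GW4869 against DMSO cells and EVs, and 25 and 2 for the stimulation and GW4869 ratios. For the 16 sums by anticodon and kind these were 4 and 14, 2 and 0, and 1 for the GW4869 ratio. With DESeq2 the stimulation ratio had 7 features, and with the stricter filter it had 5, as had GW4869 against DMSO EVs. DESeq2, and its size factors in edgeR, called 6 sums in GW4869 against DMSO EVs and 3 in the stimulation ratio. With only the groups compared, 24 features were called in DMSO against stimulated cells and 20 in the stimulation ratio, and 0 features and 0 sums in DMSO against stimulated EVs, GW4869 against DMSO EVs and the GW4869 ratio.
Leaving out 1 library gave 0 to 1 and 1 to 14 features for GW4869 against DMSO cells and EVs, 3 to 11 for DMSO against stimulated EVs and 1 to 12 for the GW4869 ratio. Sums ran from 0 to 5, 2 to 3 and 0 to 6 in the last 3 of these, and from 3 to 8 in the stimulation ratio. The cause of these moves was not tested.
No pairing by replicate number was seen, as in no comparison were all correlations of same-numbered libraries over 0.1 (−0.373 to 0.162 for GW4869 against DMSO EVs). With 3 libraries per group such correlations cannot exclude that same-numbered libraries were paired. With a replicate block the counts were 29, 33, 27 and 23 for EVs against cells in resting, stimulated, DMSO and GW4869 cultures, and 2 values lost their call, 3FR_2 of CAC-2-1 in GW4869 against DMSO EVs (−0.57) and 3FR_1 of CAC-2-4 in DMSO against stimulated cells (−0.98). Counting tRNA features with equal counts once changed nothing, since none were equal. The smallest valine count was 4, so the rarer kinds rest on few counts.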
